A study of Mus musculus with 12 samples.

Results

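The comparison described here sets EYFP-positive against EYFP-negative cells within ER71 mutant mouse embryos, that is, the reporter sort in embryos mutant for the gene the reporter is named for. Its members are the 3 arrays titled as mutant and EYFP positive and the 3 titled as mutant and EYFP negative, 6 of the 12 arrays of the study. The other 6 arrays hold the same sort from wild-type embryos and show where the mutant sort differs. They also enter the shared estimate of spread and the choice of probe set. All embryos were collected at embryonic day 8.0 from a mixed C57BL/6 and FVB line. Trypsin freed the cells, a sorter separated them by the yellow fluorescent protein EYFP, and RNA went through 2 rounds of amplification before hybridisation. ER71, now named Etv2, encodes an ETS-family transcription factor, and the labels name the reporter line ER71 EYFP without stating the driving sequence. The kind of mutation is not stated there either, nor are the embryos, litters or pools behind each of the 3 samples of a group. The p-values therefore cover only the spread of these samples, which may be technical. The fractions are called mutant positive and mutant negative cells below.

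Etv2 acts for a short time in mesoderm that expresses the VEGF receptor Kdr, and embryos without it form neither endothelium nor blood. Kdr-positive mesoderm of this stage also gives rise to heart, smooth muscle and extraembryonic mesoderm, with the lateral plate as a neighbouring source of gut-wall and body-wall tissue. The question this sort can address is which genes mark reporter-positive cells in embryos labelled as ER71 mutant. Because these are bulk samples, fewer cells of a type and less RNA per cell cannot be told apart.

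In mutant embryos the positive cells carried more transcript of Kdr and Tek together with lateral plate, cardiac and matrix genes, and less of neural, epithelial and somite genes. Among 40 endothelial genes there were 3 rises in the mutant sort and 37 in the wild-type sort (background of rises 3.07% and 4.63%). Of 18193 genes, each measured by its brightest probe set on average, 558 rose in mutant positive cells (3.07%) and 417 fell (2.29%) at an adjusted p under 0.05 (limma, Benjamini-Hochberg over all genes), 5.36% in both directions together. With the array pairs as a block the counts were 872 and 614, and 943 of the 975 genes were called in both fits. With only the 6 mutant arrays there were 394 rises and 289 falls. Without mutant negative array 3 there were 368 rises, and without mutant positive array 2 or 3 there were 257 or 275 falls. Among the called genes 329 rose and 214 fell by at least 2-fold. The 3 and 3 arrays did not overlap in 974 of the 975 called genes, against 19.5% of all genes (8.48% with all positive arrays higher). The median difference over all genes was -0.03 on the log2 scale, and every difference below is mutant positive minus mutant negative in log2 RMA values unless said otherwise, with limma's standard error (SE) and n = 3 per group.

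The promoters of the markers Kdr, Tek, Tbx20 and Tcf21 are shown so that they can be compared with that of Tal1. Foxf1, also a marker, had no promoter entry to show. Tal1 missed the threshold in the main fit of the mutant sort. Its arrays did not overlap, however, and it passed in other fits given below. The 250 bases before the annotated start of Kdr, Tek, Tbx20, Tcf21 and Tal1 are printed from RefSeq's promoter table (GRCm38.p6). Capitals mark matches to the ETS core CCGGAA, the motif AGATAA bound by GATA factors, the forkhead motif TGTTTA or the T-box motif AGGTGT, searched on both strands. For Tal1 the first of 2 entries is shown. The sequences run 5′ to 3′ on the gene's strand.
Kdr promoter, chr5:75978456-75978705, minus strand: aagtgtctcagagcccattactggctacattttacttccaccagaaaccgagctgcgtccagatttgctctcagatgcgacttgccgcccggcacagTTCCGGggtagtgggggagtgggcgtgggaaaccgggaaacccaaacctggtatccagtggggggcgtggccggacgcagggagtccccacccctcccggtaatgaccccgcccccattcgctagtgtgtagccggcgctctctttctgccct
Tek promoter, chr4:94739039-94739288, plus strand: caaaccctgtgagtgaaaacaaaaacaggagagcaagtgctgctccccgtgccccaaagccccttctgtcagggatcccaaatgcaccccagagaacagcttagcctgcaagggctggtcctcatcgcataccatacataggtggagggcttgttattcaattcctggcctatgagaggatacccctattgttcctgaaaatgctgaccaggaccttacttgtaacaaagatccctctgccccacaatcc
Tbx20 promoter, chr9:24774304-24774553, minus strand: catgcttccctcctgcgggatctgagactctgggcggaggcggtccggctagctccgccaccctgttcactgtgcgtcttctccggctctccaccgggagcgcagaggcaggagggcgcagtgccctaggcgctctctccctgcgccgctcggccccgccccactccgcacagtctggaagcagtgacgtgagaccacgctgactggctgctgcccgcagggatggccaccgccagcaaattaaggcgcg
Tcf21 promoter, chr10:22820144-22820393, minus strand: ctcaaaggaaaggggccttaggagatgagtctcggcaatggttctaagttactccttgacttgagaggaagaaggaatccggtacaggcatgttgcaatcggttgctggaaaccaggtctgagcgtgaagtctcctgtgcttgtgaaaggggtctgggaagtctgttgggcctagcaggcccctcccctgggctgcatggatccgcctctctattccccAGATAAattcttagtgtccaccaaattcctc
Tal1 promoter, chr4:115056176-115056425, plus strand: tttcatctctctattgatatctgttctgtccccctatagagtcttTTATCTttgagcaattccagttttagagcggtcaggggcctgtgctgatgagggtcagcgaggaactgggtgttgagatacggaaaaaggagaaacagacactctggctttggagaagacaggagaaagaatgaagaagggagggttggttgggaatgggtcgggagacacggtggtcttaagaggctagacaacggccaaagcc
The Kdr window held 1 ETS core match, the Tcf21 and Tal1 windows 1 GATA match each, and the Tek and Tbx20 windows none of these letters. No motifs overlapped in these windows. An ETS core stood in 12.4% of 419 promoters of genes that rose and 10.3% of 312 promoters of genes that fell, against 17.5% of the 14452 tested genes with a promoter of this length. The GATA letters stood in 9.55% and 7.05%, against 7.47%. For the forkhead letters the shares were 8.11% and 8.65%, against 9.22%, and for the T-box letters 10% and 12.5%, against 11%. These matches describe letters in a window and are not binding sites.

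Several called genes also host microRNAs inside their transcription units, and their sequences are shown because they belong to the cardiac, epithelial, Hox and endothelial groups described below. The arrays measured the host transcript, not the microRNA, and these hosts were chosen after their values were seen. Of 484 tested genes that contain a mature microRNA on their own strand in RefSeq, 19 rose and 13 fell. Among all genes 3.07% rose and 2.29% fell. Not every chromosome was searched for hosts. Capitals mark the seed, bases 2 to 8, and positions are those of RefSeq (GRCm38.p6).
miR-208a-3p, chr14:54949072-54949093, minus strand: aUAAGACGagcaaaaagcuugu
miR-208b-3p, chr14:54975710-54975731, minus strand: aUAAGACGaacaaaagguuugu
miR-200b-3p, chr4:156055685-156055706, minus strand: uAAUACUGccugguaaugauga
miR-429-3p, chr4:156053916-156053937, minus strand: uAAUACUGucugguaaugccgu
miR-200a-3p, chr4:156054911-156054932, minus strand: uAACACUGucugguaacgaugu
miR-10b-5p, chr2:74726074-74726096, plus strand: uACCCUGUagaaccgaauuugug
miR-126a-3p, chr2:26591402-26591423, plus strand: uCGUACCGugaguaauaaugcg
Both miR-208 microRNAs share the seed UAAGACG and lie in Myh6 and Myh7, which encode the cardiac myosin heavy chains and rose by 1.92 and 1.44. These calls are fragile: Myh6 passed in only 1 of the 6 fits that each left out 1 array, the fit without mutant negative array 3 (highest adjusted p = 0.136), and Myh7 passed only without positive array 3 or negative array 3 (highest adjusted p = 0.0730). The Myh6 and Myh7 sequences are near-identical, so their probe sets may not fully separate them. The miR-200b and miR-429 sequences share the seed AAUACUG, and with miR-200a they lie in Gm13648, which fell by 0.73 on the log2 scale (adjusted p = 0.00931). That call was lost without both mutant arrays numbered 1 (adjusted p = 0.0859), and Gm13648 did not pass the filter on dim genes. Hoxd3, which contains miR-10b, fell by 1.20. Egfl7, the endothelial host of miR-126, differed by 0.36 and did not pass (adjusted p = 0.425).

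**Figure D1:**
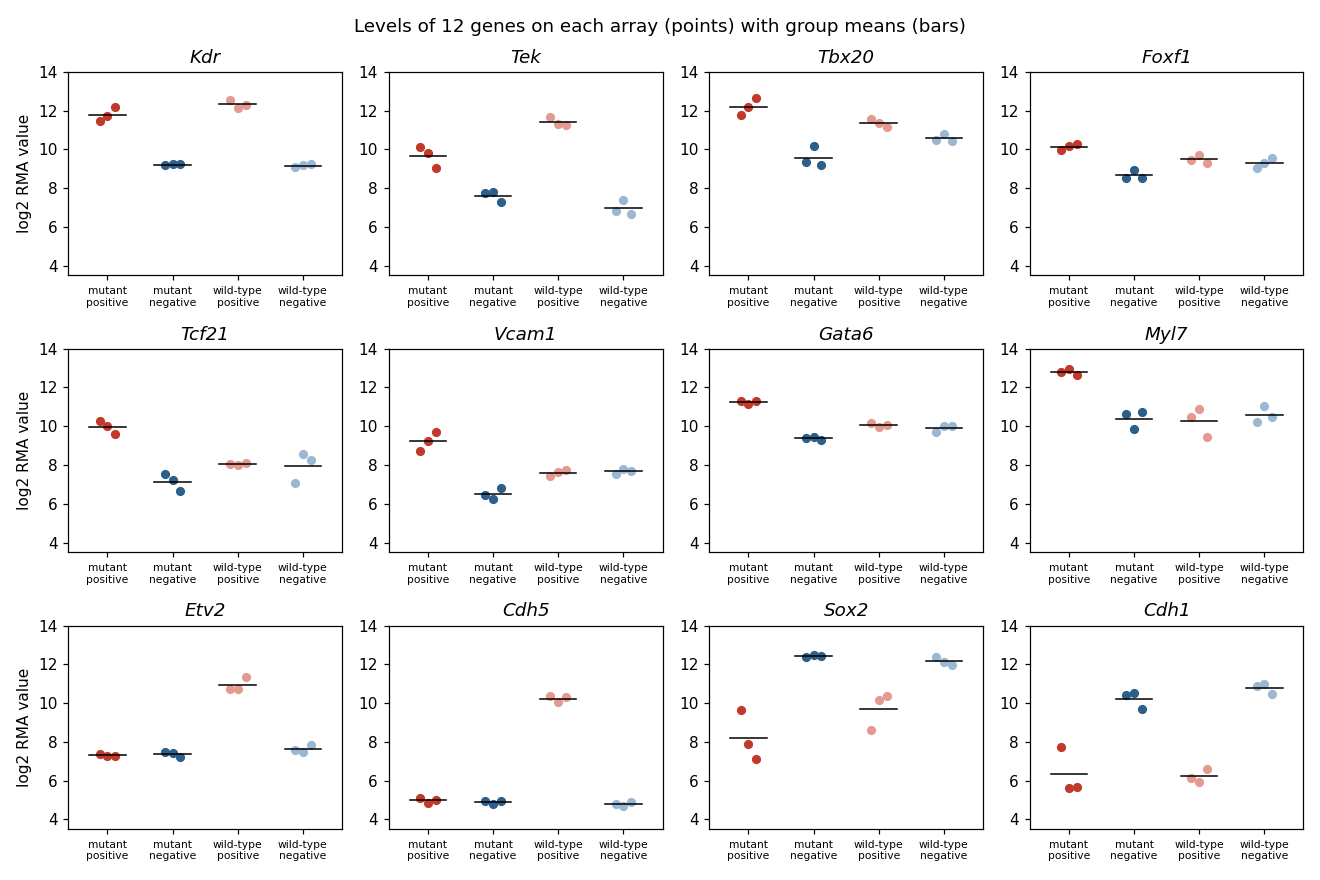
Log2 RMA value (vertical axis) of 12 genes on each array (points) with group means (bars) in mutant and wild-type positive and negative cells (horizontal axis). In mutants, the 8 genes of the upper and middle rows are higher in positive cells on all arrays, Sox2 and Cdh1 are lower, and Etv2 and Cdh5 are high only on the 3 wild-type positive arrays.

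Etv2 itself was measured first as a check of the labels. It read 7.40, 7.26 and 7.28 on the mutant positive arrays and 7.49, 7.43 and 7.24 on the mutant negative arrays. The groups overlapped, and the difference of -0.07 ± 0.17 did not pass (adjusted p = 0.918; 95% interval -0.46 to 0.32). In wild types the same sort gave a difference of 3.28. The labels do not say which part of the gene the mutation removes, so this probe set may check nothing about it.

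Kdr, the main VEGF receptor of early mesoderm and endothelium, read 11.48, 11.72 and 12.17 on the positive arrays and 9.19, 9.23 and 9.24 on the negative arrays. The positive arrays stood above all negative ones, and the rise was 5.95-fold (2.57 ± 0.16; adjusted p = 4.62e-05). Kdr also rose in the wild-type sort, by 3.17, and the difference between the genotypes did not pass (-0.59 ± 0.23; adjusted p = 0.294). Tek, the angiopoietin receptor of endothelial cells, read 10.15, 9.80 and 9.03 against 7.75, 7.80 and 7.31. Its groups did not overlap either, with a 4.11-fold rise (2.04 ± 0.28; adjusted p = 0.00136). Tek rose less in mutants than in wild types, where the difference was 4.46 (interaction -2.42 ± 0.39, adjusted p = 0.00589).

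The other markers of the positive fraction were the mesodermal transcription factors Tbx20, Foxf1 and Tcf21. Tbx20, a regulator of heart development, read 11.75, 12.17 and 12.66 on the positive and 9.36, 10.18 and 9.19 on the negative arrays. That is a 6.13-fold rise with no overlap (2.62 ± 0.27; adjusted p = 0.000304). Foxf1, a factor of splanchnic and extraembryonic mesoderm, read 9.97, 10.18 and 10.30 against 8.55, 8.96 and 8.52 and rose by 1.47 ± 0.17 (adjusted p = 0.000612). Tcf21, a factor of visceral mesenchyme and the epicardial lineage, read between 9.60 and 10.26 on the positive arrays, against 7.52, 7.22 and 6.68. Its rise of 2.81 ± 0.33 was 7.03-fold (adjusted p = 0.000670). In all 5 markers every positive array stood above every negative array. Dimmer probe sets gave smaller differences for Foxf1 (0.41) and Tcf21 (0.69). The 5 genes were proposed as markers with these data known, so this count supports nothing by itself. Kdr and Tek also count in the VEGF and Tie list below, Tbx20 in the cardiac list and Tcf21 in the lateral plate list. Foxf1 and Tcf21 had differences of 0.21 and 0.10 in wild types, and both interactions passed (1.26 ± 0.24, adjusted p = 0.0176, and 2.71 ± 0.47, adjusted p = 0.00979). With the median over each gene's probe sets both interactions were lost (0.78 and 1.59), as was the Foxf1 rise (0.94, adjusted p = 0.0859). The Foxf1 interaction was also lost without both mutant arrays numbered 1. The Tbx20 interaction (1.82 ± 0.38, adjusted p = 0.0293) was lost when mutant positive array 2 or 3, or mutant negative array 1 or 3, was left out (0.0512 to 0.0695).

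**Figure D2:**
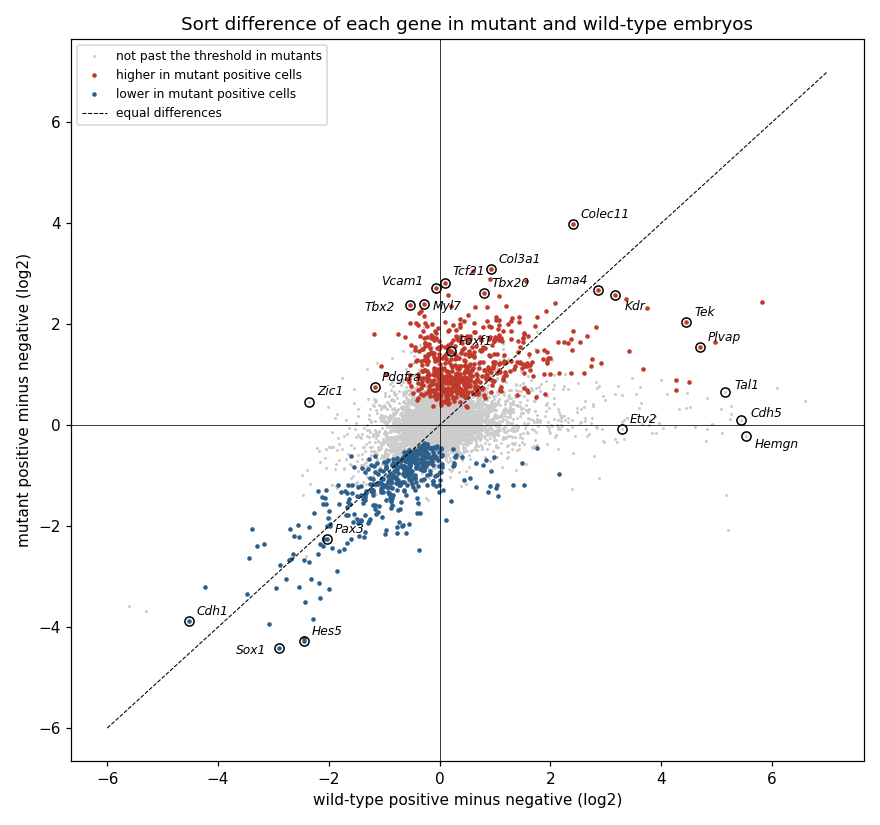
Positive minus negative difference (log2) of each of 18193 genes in mutants (vertical axis) and wild types (horizontal axis), with mutant calls coloured and the dashed line marking equal differences. Genes such as Cdh5 and Hemgn lie far to the right near 0 on the mutant axis, Vcam1, Tcf21 and Tbx2 lie high near 0 on the wild-type axis, and Cdh1 and Sox1 are low on both.

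The mutant and wild-type sorts share no arrays, and their calls overlapped in part. In wild types 1499 genes passed (8.24%). Of the mutant calls, 171 genes rose in both sorts, which is 30.6% of the genes that rose in mutants and 20.3% of those that rose in wild types. Of the genes that fell, 216 did so in both sorts, 51.8% of the mutant and 32.9% of the wild-type calls. Opposite calls were made for 19 genes. The sort difference itself differed between genotypes in 469 genes (2.58%), 177 with a positive interaction (0.973%) and 292 with a negative one (1.61%), and in 797 genes with the block. Of the 558 genes that rose in mutants, 113 had a positive interaction, 17 a negative one, and in 428 it did not pass. Of the 417 that fell, the interaction did not pass in 387. Without both mutant arrays numbered 1 the interaction count was 292.

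Among ligands and receptors of the VEGF and Tie families, which guide vessel formation, 8 of 15 rose and 0 fell (median 0.75). The receptors that rose were the given markers Kdr and Tek and the VEGF co-receptor Nrp1. Nrp1 read 12.45, 13.03 and 12.72 on the positive arrays and 10.86, 10.96 and 11.38 on the negative arrays, a rise of 1.67 ± 0.18 with no overlap (adjusted p = 0.000409). The other endothelial receptors of the list did not pass: Flt1 differed by 0.75 ± 0.20 (adjusted p = 0.0536, and 0.0371 with the block), Flt4 by 0.10 ± 0.11 (adjusted p = 0.765) and Tie1 by -0.08 ± 0.30 (adjusted p = 0.956). In wild types these differences were 3.61, 3.79 and 2.29. Flt4 turned to -0.04 with the mean of its probe sets. Tie1 was dim, above the array median on fewer than 3 arrays, which limits what its difference can show.

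Of the ligands, Vegfc, which binds Flt4 and Kdr, read 11.14, 11.35 and 11.38 against 9.76, 10.01 and 9.60 and rose by 1.50 ± 0.18 (adjusted p = 0.000841). Pgf, a ligand of Flt1, rose by 1.29 ± 0.16 (adjusted p = 0.000982) where wild types had -0.22, and the interaction passed (1.52, adjusted p = 0.00418). Vegfa rose by 0.70 ± 0.09 (adjusted p = 0.00123). Vegfd, a relative of Vegfc, rose by 1.50 ± 0.33 (adjusted p = 0.0223) and lost the call without positive array 3 or negative array 1 or 2 (up to 0.0898). Angpt1, the activating ligand of Tek, rose by 1.08 ± 0.27 (adjusted p = 0.0390), a call that held only without positive array 3 or negative array 2 among the single-array omissions (otherwise up to 0.137) and was lost with the mean of its probe sets (0.68, adjusted p = 0.0531). Flt1, Flt4, Tie1, Vegfd and Angpt1 were singled out after their values were seen.

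The 40 endothelial genes had 3 rises and 0 falls in mutant positive cells (median 0.08; 10 and 1 at an unadjusted limma p under 0.05, 6 rises with the block), whereas the 37 rises of wild types came with a median of 2.64. Interactions passed for 30 of the 40, each of them negative. The endothelial mean lay between 6.99 and 7.08 on the mutant positive arrays, between 6.74 and 6.89 on the mutant negative arrays, and between 9.39 and 9.80 on the wild-type positive arrays. Cdh5, the adhesion molecule of endothelial junctions, read between 4.86 and 5.09 in mutant positive and between 4.81 and 4.93 in mutant negative cells. These values overlap and lie below the 25th percentile of every array (5.62 to 5.69). The difference was 0.10 ± 0.11 (adjusted p = 0.787; 95% interval -0.15 to 0.35) against 5.44 in wild types (interaction -5.34 ± 0.15, adjusted p = 1.34e-08).

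The endothelial genes that rose were Plvap, Aplnr and Cd34. Aplnr, the apelin receptor, which is also found on early mesoderm, read 13.25, 13.76 and 13.53 against 12.45, 12.29 and 12.26, and its rise of 1.18 ± 0.18 (adjusted p = 0.00248) was near the 1.55 of wild types. Plvap, a protein of endothelial diaphragms, read 9.38, 8.87 and 8.96 on the positive arrays and at most 7.88 on the negative arrays. It rose by 1.54 ± 0.25 (adjusted p = 0.00403), less than the 4.70 of wild types (interaction -3.16, adjusted p = 0.000496). Cd34 rose by 0.85 ± 0.22 (adjusted p = 0.0427), and this call was lost on leaving out any single mutant array other than positive array 2 (0.0626 to 0.135).

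Blood genes passed in fewer cases in the mutant sort than in the wild-type sort. Of 21 haematopoietic regulators and receptors 2 rose and 1 fell (median -0.07), against 12 rises in wild types. Among all genes 3.07% rose and 2.29% fell in mutants, and 4.63% rose in wild types. Tal1, needed to specify blood, read 7.52, 7.55 and 7.39 on the positive and 6.88, 6.86 and 6.75 on the negative arrays. The groups did not overlap, but the difference of 0.66 ± 0.18 missed the threshold (adjusted p = 0.0559). It passed with the block (adjusted p = 0.00838), with the mutant arrays alone (0.0194) and with the mean of each gene's probe sets (0.0447). Tal1 has 1 probe set, so its own values were unchanged in that last fit. The wild-type difference was 5.15 (interaction -4.50 ± 0.25, adjusted p = 1.68e-06). The regulator Myb fell by 1.16 ± 0.17 on the log2 scale (adjusted p = 0.00212). The adhesion receptor Cd44 rose by 1.14 ± 0.21 (adjusted p = 0.00745). The corepressor Cbfa2t3 rose by 1.02 ± 0.26 (adjusted p = 0.0433), a call kept only without positive array 3 among the single-array omissions (otherwise up to 0.141) and lost with the block (adjusted p = 0.0638) and with the mean of its probe sets (0.43, adjusted p = 0.0795).

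Of 18 primitive erythroid genes 0 rose and 0 fell (limma; median -0.06; also 0 and 0 at an unadjusted p under 0.05), against 13 rises in wild types, and 11 interactions were negative. With 5.36% of all genes called in mutants, 0 of 18 says little by itself. Klf1, the erythroid master factor, differed by -0.27 ± 0.14 (adjusted p = 0.406), where wild types had 3.33. Hemgn, an erythroid nuclear protein, differed by -0.22 ± 0.28 (adjusted p = 0.825), where wild types had 5.53. Mutant negative array 2 stood apart here: the embryonic globin Hbb-y read 11.55 there, against 5.01 and 4.71 on the other mutant negative arrays and 4.69 to 5.36 on the positive ones, so its difference of -2.07 became 0.16 without that array. Hbb-bh1 read 10.51 there. The part of this array's globin signal in other results was not tested.

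**Figure D3:**
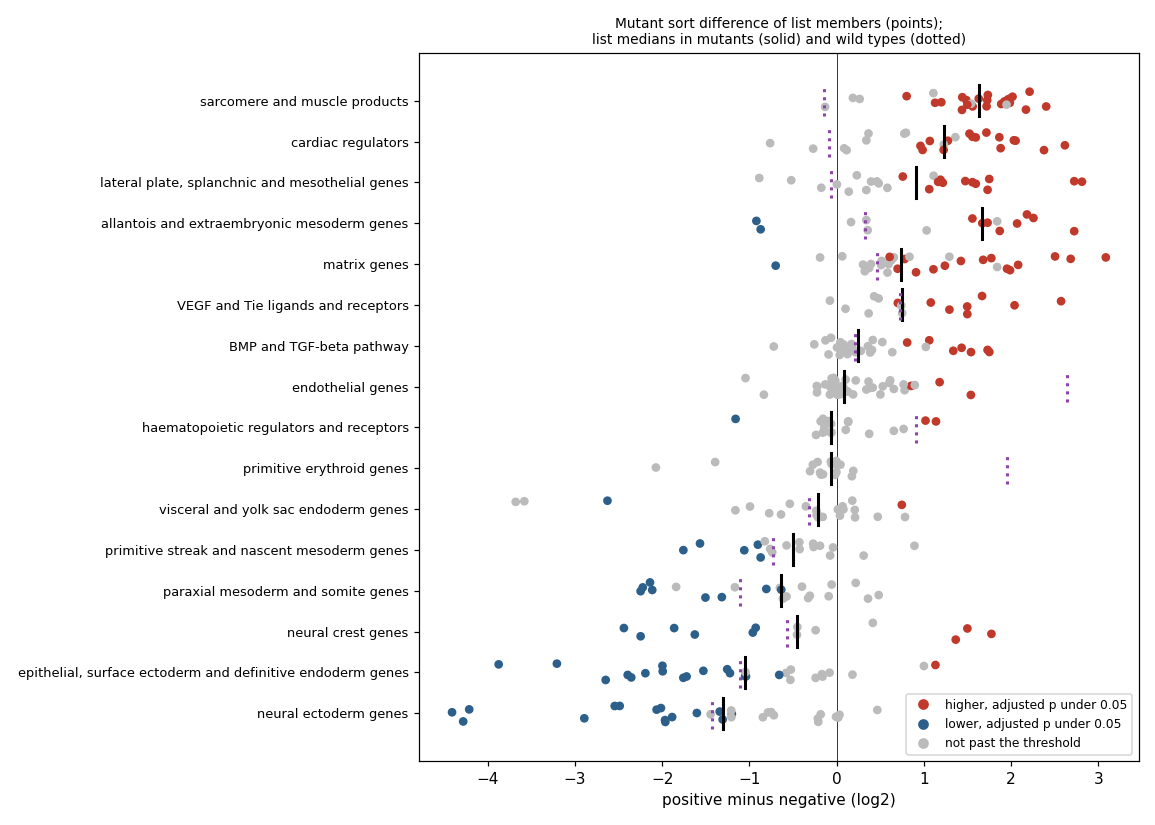
Mutant positive minus negative difference (log2, horizontal axis) of each measured member (points, coloured by call) of 16 gene lists, with the list median in mutants (solid line) and wild types (dotted line). Sarcomere genes have a mutant median of 1.63 and a wild-type median of -0.14, endothelial genes 0.08 and 2.64, and neural genes -1.31 and -1.42.

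Of 25 cardiac transcription factors and cofactors, 15 rose and 0 fell (median 1.23; 1 fell with the block), while 4 rose and 1 fell in wild types (median -0.09), and 11 interactions were positive. Gata6, which acts in cardiac mesoderm and endoderm, read 11.28, 11.15 and 11.32 against 9.39, 9.43 and 9.29. Its rise of 1.88 ± 0.11 was 3.68-fold with tight groups far apart (adjusted p = 4.56e-05), against 0.16 in wild types (interaction 1.72 ± 0.16, adjusted p = 0.000100). Hand2, a factor of the heart and limb fields, read 11.50, 11.23 and 11.67 against 9.85, 9.71 and 10.07. It rose by 1.59 ± 0.16 (adjusted p = 0.000244), and the groups did not overlap.

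Tbx2, a repressor of chamber genes in the atrioventricular canal, read 8.39, 8.99 and 9.62 against 6.48, 6.69 and 6.70 and rose by 2.38 ± 0.24 (adjusted p = 0.000284), with an interaction of 2.91 (adjusted p = 0.000659). Gata4 rose by 1.52 ± 0.23 (adjusted p = 0.00229). Hand1 read 8.83, 8.99 and 8.97 against 8.63, 8.58 and 8.55, and its difference of 0.34 ± 0.09 did not pass (adjusted p = 0.0603), though it did with the mean of its probe sets (0.37, adjusted p = 0.0215) and with arrays centred on their medians (0.0302). Among others, chosen after their values were seen, Mef2c rose by 1.72, Isl1, of the second heart field, by 1.07, and Tbx5, of the first heart field, by 0.99. Nkx2-5 rose by 0.96 (adjusted p = 0.0407) but kept this call only without positive array 3 among the single-array omissions (otherwise up to 0.144). Second probe sets of several of these genes were dim and did not follow: for Gata4 the other gave 0.11 (adjusted p = 0.786), and for Hand2 the others gave 0.25 and 0.29.

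Sarcomere and muscle products rose in 21 of 27 cases and fell in 0 (median 1.63), while in wild types none of the 27 passed (limma; median -0.14). Interactions passed for 10, all positive. Myl7, the atrial myosin light chain that marks early heart muscle, read 12.80, 12.93 and 12.66 on the positive and 10.62, 9.84 and 10.73 on the negative arrays. Its 5.29-fold rise (2.40 ± 0.35; adjusted p = 0.00212) stood against a wild-type difference of -0.29 (interaction 2.69, adjusted p = 0.0151). Tnni1, the slow troponin I of the embryonic heart, read 12.20, 11.84 and 11.22 against 10.08, 9.18 and 9.37 and rose by 2.21 ± 0.28 (adjusted p = 0.000979). The myosin-binding Mybpc3 rose by 1.13 ± 0.15 (adjusted p = 0.00123) and the intermediate filament Des by 0.80 ± 0.11 (adjusted p = 0.00189). The other probe set of Des gave -0.21, and with the mean of both the Des call was lost (0.30, adjusted p = 0.0657). Without both mutant arrays numbered 1 the list had 14 rises, and the Myl7 interaction did not pass (adjusted p = 0.0601).

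Lateral plate, splanchnic and mesothelial genes rose in 12 of 24 cases and fell in 0 (median 0.91). In wild types 0 rose and 7 fell, and 12 interactions were positive. Vcam1, an adhesion molecule of the allantois and of cardiac mesoderm, read 8.70, 9.25 and 9.72 against 6.43, 6.23 and 6.82. Its rise of 2.72 ± 0.23 was 6.61-fold (adjusted p = 0.000105), where wild types had -0.07 (interaction 2.79 ± 0.32, adjusted p = 0.000627). The probe sets of Vcam1 disagreed in size, the other 2 giving 0.07 and 0.47. Bmp4, the signal of lateral and extraembryonic mesoderm, read 11.91, 12.44 and 11.93 against 10.30, 10.66 and 10.13 and rose by 1.73 ± 0.20 (adjusted p = 0.000664).

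Pdgfra, a receptor of cardiac and paraxial mesoderm, read 12.53, 12.40 and 13.02 in positive and 12.00, 11.79 and 11.88 in negative cells. It rose by 0.76 ± 0.18 (adjusted p = 0.0279) and fell by 1.18 on the log2 scale in wild types (adjusted p = 0.00146), an interaction of 1.93 ± 0.25 (adjusted p = 0.00128). The mutant rise was lost without positive array 3 or any 1 of the negative arrays (0.0521 to 0.0994). Of the 6 PDGF ligands and receptors 2 rose, Pdgfra and Pdgfrb (1.22 ± 0.25, adjusted p = 0.0152), and 0 fell. The Pdgfrb call held only without positive array 1 or negative array 3 among the single-array omissions (otherwise up to 0.0644). The ligand Pdgfa differed by -1.01 ± 0.30 (adjusted p = 0.0938). Without positive array 3 Pdgfa fell by 1.40 on the log2 scale (adjusted p = 0.00592), and the list then had 0 rises and 1 fall. It had 0 rises without negative array 1 or 2 and 1 without positive array 2 or negative array 3 or with the mutant arrays alone.

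Allantois and extraembryonic mesoderm genes rose in 8 of 15 cases and fell in 2 (median 1.67). Vcam1 and Bmp4, described above, are members of this list, and Bmp4 also counts in the BMP list, so the list counts are not independent. Spin2c read 12.08, 11.94 and 13.29 against 10.18, 10.19 and 10.39 and rose by 2.18 ± 0.29 (adjusted p = 0.00132), and the large scaffold protein Ahnak rose by 2.07 ± 0.29 (adjusted p = 0.00163). Without any 1 of the negative arrays, or with only the 6 mutant arrays, the list had 5 rises. Mutant positive array 3 had the highest mean of this list, 9.95 against 9.40 and 9.46, and the lowest mean of the sarcomere list, 10.36 against 11.01 and 10.74. Hoxc10 (11.00 against 8.94 and 9.32) and Rgs5, a regulator of G-protein signalling in mural cells (11.64 against 9.56 and 10.22), were also highest there. The trophoblast list, which holds markers of another extraembryonic tissue, had 2 rises and 1 fall among 9 genes (2 falls with the block), against 3.07% and 2.29% of all genes. Its rises, Plac1 (2.26 ± 0.56, adjusted p = 0.0403) and Phlda2 (2.09 ± 0.53, adjusted p = 0.0441), were also highest on array 3 and were lost on leaving out any single array other than positive array 2 (up to 0.118 and 0.150). The fall was Tfap2c, by 3.05 ± 0.23 on the log2 scale (adjusted p = 5.95e-05).

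**Figure D4:**
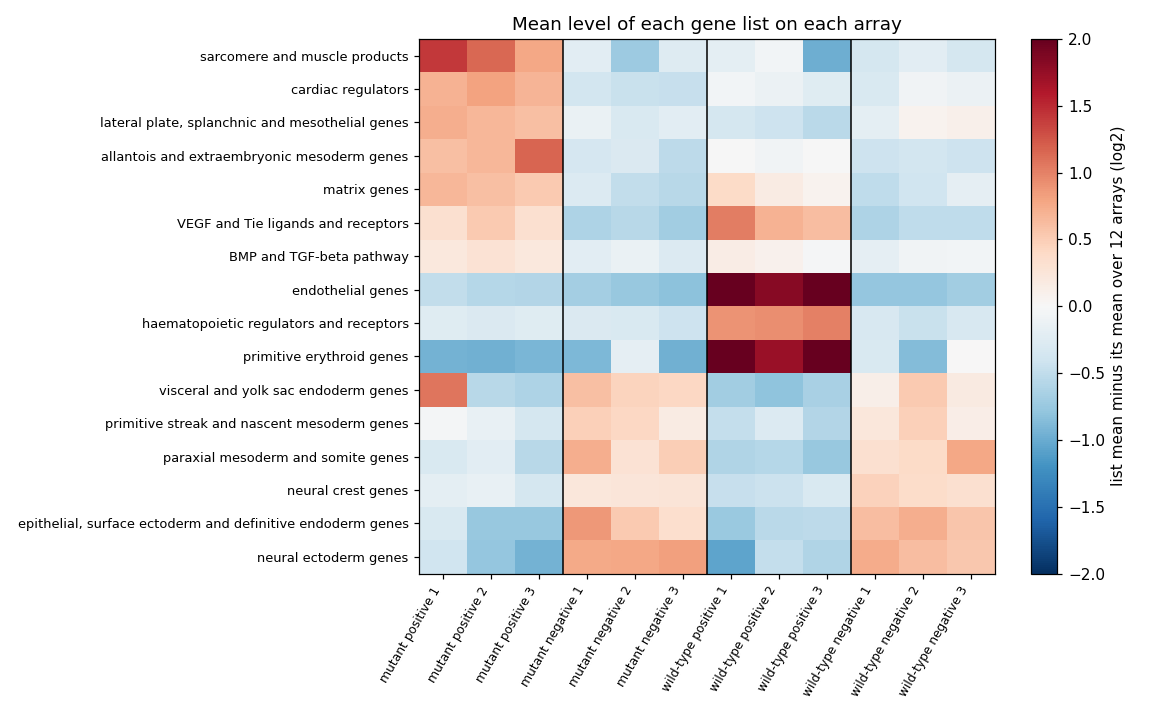
Mean log2 level of 16 gene lists (rows) on each of the 12 arrays (columns), as the difference from the list's own mean over the 12 arrays. Mutant positive array 1 stands out for yolk sac endoderm genes (mean 8.46 against 6.84 and 6.78), mutant negative array 2 for primitive erythroid genes (7.92 against 7.20 and 7.14), and array 3 of the mutant positive group for allantois genes.

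Of 32 genes of the extracellular matrix, 15 rose and 1 fell (median 0.74), and in wild types 10 rose and 2 fell. Col3a1, a fibrillar collagen, read 13.10, 13.33 and 12.83 against 10.54, 9.91 and 9.54, an 8.49-fold rise with no overlap (3.09 ± 0.38; adjusted p = 0.000806). Lama4, the laminin chain of vascular basement membranes, read 9.69, 8.91 and 10.17 against 7.07, 7.09 and 6.56 (a dimmer probe set gave 0.57) and rose by 2.68 ± 0.32 (adjusted p = 0.000691), close to the 2.86 of wild types (interaction -0.18 ± 0.45). Nid1, which links laminin and collagen networks, rose by 2.50 ± 0.24 (adjusted p = 0.000192), with 3.36 in wild types. Col5a2 rose by 2.08 ± 0.18 (adjusted p = 0.000111) and Col1a2 by 1.77 ± 0.20 (adjusted p = 0.000465).

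Colec11, a secreted collectin that binds sugars, had the largest rise among called genes whose arrays do not overlap, each at its brightest probe set. It read 11.14, 11.27 and 10.38 on the positive and 7.36, 7.66 and 5.82 on the negative arrays, a 15.8-fold rise (3.98 ± 0.55; adjusted p = 0.00151). Its dimmer probe set gave 0.99, and with the mean of both the rise was 2.49, below those of Col3a1 (2.83) and Colec10 (2.85). The related Colec10 read 9.06, 8.58 and 7.58 against 5.70, 5.29 and 5.67 and rose by 2.85 ± 0.52 (adjusted p = 0.00738, but 0.0665 without both mutant arrays numbered 1). Neither interaction passed (adjusted p = 0.452 and 0.551). Also among the 12 largest rises were Rgs5 (3.05 ± 0.39), the adhesion protein Tgfbi (2.59 ± 0.27) and the hindlimb and pharyngeal factor Pitx1 (2.56 ± 0.21, adjusted p = 0.000105).

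Among signalling pathways, BMP and TGF-beta genes had 7 rises and 0 falls among 30 (median 0.25). They were, besides the ligand Bmp4, the pseudoreceptor Bambi (1.43 ± 0.16, adjusted p = 0.000399), the inhibitory Smad6 (1.75 ± 0.21, adjusted p = 0.000742), the co-receptor Tgfbr3 (1.34 ± 0.18, adjusted p = 0.00123), Bmp2 (1.54), Bmp5 (1.06) and Smad7 (0.81). The last 3 were named after their values were seen, and the Bmp5 call held only without negative array 2 (otherwise up to 0.131), while that of Smad7 was lost without positive array 2 or negative array 1 or 3 (up to 0.139). Bambi, Smad6 and Smad7 are feedback inhibitors of the pathway. Of 38 Wnt genes 3 rose and 9 fell (median -0.21), with 5 rises without positive array 3 or with the block and 5 falls without negative array 1. The ligand Wnt2, made by heart and allantois precursors, read 9.96, 9.27 and 9.64 against 8.12, 7.32 and 7.83 and rose by 1.87 ± 0.27 (adjusted p = 0.00192; interaction 2.17, adjusted p = 0.0105). The activator Rspo1 rose by 1.58 ± 0.22 (adjusted p = 0.00183). The antagonist Sfrp2 and the ligand Wnt5b fell by 1.28 ± 0.14 and 1.44 ± 0.21 on the log2 scale.

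Notch genes fell in 6 of 19 cases and rose in 1, the target Hey2 (1.03, named after its value was seen; median of the list -0.36), and 4 interactions were negative. The ligand Dll1, active in presomitic mesoderm and neural precursors, read 7.90, 7.68 and 8.12 on the positive and 10.13, 10.16 and 10.08 on the negative arrays. Its fall was 4.67-fold (-2.22 ± 0.16; adjusted p = 5.82e-05) with groups far apart. The target Hes5 read 8.34, 7.75 and 6.77 against 11.78, 12.38 and 11.56, a 19.5-fold fall (-4.28 ± 0.42; adjusted p = 0.000244). Of 24 FGF genes 1 rose and 3 fell, where 3.07% of all genes rose and 2.29% fell. The falls were the ligands Fgf15 (-2.33 ± 0.33), Fgf3 (-1.66 ± 0.20) and Fgf18 (-1.49 ± 0.18). The gene that rose was the receptor Fgfr3 (0.65 ± 0.14, adjusted p = 0.0198), whose call was lost without positive array 2 or 3 or negative array 1 (up to 0.0755) and with the mean of its probe sets (0.31, adjusted p = 0.302).

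In the Hedgehog pathway only the ligand Shh, made by notochord, floor plate and gut, passed among 13 genes, against 5.36% of all genes. It read 9.13, 7.51 and 7.69 against 10.94, 10.59 and 10.74, a fall of 2.65 ± 0.48 on the log2 scale (adjusted p = 0.00771) close to that of wild types (-2.68). Its dim second probe set gave 0.05. Of 14 retinoic acid genes 2 fell, the binding protein Crabp2 (-2.07 ± 0.24, adjusted p = 0.000659) and the degrading enzyme Cyp26a1 (-0.94 ± 0.20, adjusted p = 0.0202). The Cyp26a1 call was lost without positive array 2 or 3 or negative array 1 or 2 (up to 0.0829), and the falls of this list numbered 4 without positive array 1 and with the block.

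Of 29 neural ectoderm genes 15 fell and 0 rose (median -1.31), and 19 fell in wild types (median -1.42). Sox2 read 9.65, 7.88 and 7.09 on the positive and 12.35, 12.49 and 12.42 on the negative arrays, an 18.6-fold fall (-4.21 ± 0.57; adjusted p = 0.00135). Sox1, an early neural plate factor, read 6.97, 5.32 and 4.69 against 9.88, 10.15 and 10.20, a 21.3-fold fall (-4.41 ± 0.60; adjusted p = 0.00144). On positive array 1 both genes were higher than on the other positive arrays, yet all 3 lay below every negative array. The dimmer second probe set of Sox1 gave 0.03. Pax6 fell by 2.55 ± 0.23 on the log2 scale (adjusted p = 0.000122), and the differences were -2.89 ± 0.36 for Neurog2, a proneural factor, -3.94 ± 0.29 for Sp8, -3.84 ± 0.39 for Rfx4 and -3.43 ± 0.28 for the adhesion molecule Nrcam, all past the threshold. Of these named neural genes none had an interaction past the threshold. Zic1 was an exception within the list: it differed by 0.47 ± 0.40 in mutants (adjusted p = 0.689) and fell by 2.35 on the log2 scale in wild types, an interaction of 2.82 (adjusted p = 0.0239) kept only without positive array 3 among the single-array omissions (otherwise up to 0.0630). Pax6 has 5 probe sets, of which the others gave -0.09, -0.17, -0.21 and -1.47.

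Epithelial, surface ectoderm and definitive endoderm genes fell in 16 of 27 cases and rose in 1, the keratin Krt8 (1.13 ± 0.18; list median -1.05; 2 rises with the block), and in wild types 16 fell and 1 rose. Krt8 was named after its value was seen. Cdh1, E-cadherin, read 7.74, 5.61 and 5.68 against 10.44, 10.51 and 9.70, a 14.7-fold fall (-3.88 ± 0.47; adjusted p = 0.000813), and -4.57 without positive array 1. The epithelial adhesion molecule Epcam read 8.23, 7.05 and 7.44 against 11.10, 10.95 and 10.29 and fell by 3.21 ± 0.42 on the log2 scale (adjusted p = 0.00118). The endoderm factor Foxa1 fell by 2.19 ± 0.23 and the protease inhibitor Spint2 by 2.00 ± 0.24. Cldn9, a tight junction protein, fell by 3.34 ± 0.33. In Cdh1 and Epcam positive array 1 was again the highest of the 3, and all 3 stayed below the negative arrays.

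The same array carried yolk sac endoderm transcripts. Afp read 11.98 on positive array 1 against 5.02 and 4.04 on the other positive arrays and 10.07 to 11.06 on the negative arrays, and Ttr read 12.21 against 5.58 and 5.79. Neither difference passed (Afp -3.58 ± 1.52, adjusted p = 0.274; Ttr -3.68 ± 1.34, adjusted p = 0.181). Of 24 yolk sac endoderm genes 1 rose and 1 fell on all arrays, 1 rose and 2 fell with the block, and 0 rose and 11 fell without positive array 1. Among all genes 3.07% rose and 2.29% fell on all arrays. The fall, Spink1 (-2.63 ± 0.62, adjusted p = 0.0297), was lost on leaving out any single array other than positive array 1 (up to 0.117). The rise, Dab2 (0.75 ± 0.19, adjusted p = 0.0497), was kept only without negative array 3 (otherwise up to 0.177). The part of this array in other results was not tested beyond the counts without it, which for sarcomere, cardiac, neural and epithelial genes were 15 rises, 15 rises, 16 falls and 16 falls.

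Of 21 genes of paraxial mesoderm and somites 8 fell and 0 rose (median -0.64), with 12 falls in wild types. Pax3, of the dorsal somite and neural tube, read 8.34, 8.26 and 7.81 against 10.12, 10.45 and 10.59, a 4.75-fold fall (-2.25 ± 0.20; adjusted p = 0.000126) with no overlap. The segmentation genes Dll3 and Hes7 fell by 2.12 ± 0.27 and 1.51 ± 0.17 on the log2 scale. Primitive streak genes fell in 5 of 18 cases and rose in 0 (median -0.50), with 9 falls and 1 rise under the block and 3 without positive array 3 or negative array 1. They included Mixl1 (-1.06 ± 0.18), Evx1 (-0.90 ± 0.17) and Cdx1 (-1.57 ± 0.31, lost without both mutant arrays numbered 1, limma adjusted p = 0.0688). Of 7 intermediate mesoderm genes 1 fell, against 2.29% of all genes. It was Emx2 (-1.95 ± 0.31, adjusted p = 0.00364). Neural crest genes went both ways, with 3 rises and 6 falls among 13: the receptor Erbb3 fell by 1.63 ± 0.15 on the log2 scale and Tfap2b by 1.86 ± 0.21, while the receptor Ednrb rose by 1.37 ± 0.15 (adjusted p = 0.000492).

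Hox genes mark position along the body axis, with low paralog numbers toward the head. Of 13 measured genes of paralog positions 1 to 5, 0 rose and 6 fell (limma; 1 and 7 at an unadjusted p under 0.05; median -0.44), and of 14 genes of positions 9 to 13, 3 rose and 0 fell (6 and 1 at that unadjusted p; median 0.17). In wild types the medians were -0.53 and 0.08. Hoxc10 read 8.94, 9.32 and 11.00 against 6.62, 7.14 and 6.81, a 7.46-fold rise with no overlap (2.90 ± 0.50; adjusted p = 0.00571). The other rises, chosen after their values were seen, were Hoxa10 (1.56 ± 0.41, adjusted p = 0.0493) and Hoxd10 (1.12 ± 0.26, adjusted p = 0.0267). They kept their calls only without positive array 1 and positive array 2, respectively (otherwise up to 0.148 and 0.0928), and that of Hoxa10 was lost with the block (adjusted p = 0.0534) and with the mean of its probe sets (0.97, adjusted p = 0.0542). The count of Hox rises was 1 without positive array 3 or any 1 of the negative arrays, 5 without positive array 1, and 6 with the block or with arrays centred on their medians. The 7 falls became 4 without negative array 2. Among the falls, Hoxc4 read 9.30, 9.20 and 9.32 against 10.73, 10.98 and 10.77 and fell by 1.56 ± 0.22 on the log2 scale (adjusted p = 0.00185). Hoxd3 and Hoxa2 fell by 1.20 ± 0.16 and 1.23 ± 0.18.

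**Figure D5:**
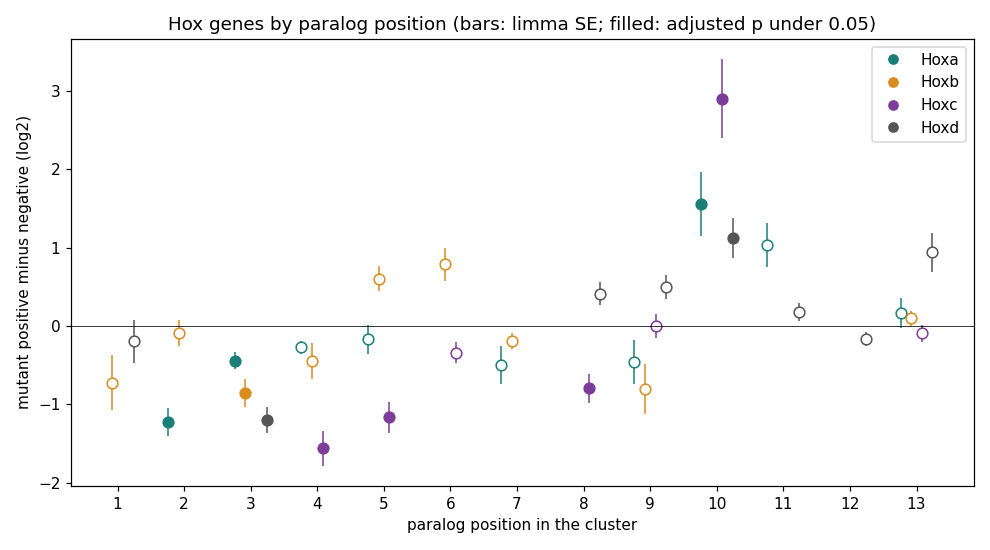
Mutant positive minus negative difference (log2, vertical axis; bars are limma's SE) of 33 Hox genes by paralog position (horizontal axis), coloured by cluster and filled where the adjusted p was under 0.05. The 3 filled points above 0 are all at position 10, and the 7 below 0 lie at positions 2 to 8.

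Of 20 genes of DNA replication and mitosis 0 rose and 0 fell (median -0.12), and of 8 ribosomal protein genes likewise 0 and 0 (median 0.01). With 5.36% of all genes called, counts of 0 in lists this short say little. At an unadjusted limma p under 0.05 the first list had 0 higher and 4 lower genes and the second 0 and 0, and with the block the first had 2 falls. Of 17 glycolysis and hypoxia genes 2 rose, Vegfa and Pfkp (0.65 ± 0.16, adjusted p = 0.0330), the latter lost on leaving out any single array other than positive array 3 or negative array 1 (up to 0.127) and with the mean of its probe sets (0.43, adjusted p = 0.454). Of 12 p53 targets 1 fell, against 2.29% of all genes. It was Pmaip1 (-1.70 ± 0.44, adjusted p = 0.0489), kept only without positive array 3 (otherwise up to 0.171) and lost with the block (adjusted p = 0.0608). Immediate early genes, which respond quickly to cell stress, had 3 rises and 1 fall among 19: Klf6 rose by 1.10 ± 0.19, Egr1 by 1.19 ± 0.28 and Fos by 1.26 ± 0.31, and Egr2, also a hindbrain gene, fell by 2.66 ± 0.45 on the log2 scale. Egr1 kept its call only without negative array 1 or 2 and Fos only without negative array 2 (otherwise up to 0.104 and 0.133). The rises numbered 1 without any 1 of the positive arrays or negative array 3, and 0 with the mutant arrays alone.

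The arrays were of like scale. Medians over all probe sets lay between 6.98 and 7.06, arrays of the same mutant group correlated at r = 0.987 to 0.989 and mutant positive with mutant negative arrays at 0.973 to 0.985 across genes, which are not independent. The actin 3′ minus 5′ control signal, which rises as RNA is less intact, was 1.53 ± 0.11 (SD, n = 3) in mutant positive and 2.26 ± 0.43 in mutant negative cells. The difference of -0.73 gave an exact permutation p = 0.1, two-sided, the smallest that 3 against 3 arrays allow, and the Gapdh difference of -0.21 gave p = 0.8 by the same permutation test. Its part in the results was not tested. The Y-linked Eif2s3y was low on all 6 mutant arrays (up to 4.48) and high on both wild-type arrays numbered 1 (10.81 and 11.23), which enter the wild-type differences, the interaction, the shared spread and the choice of probe set.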

How the data were processed

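Log2 expression values of 12 arrays were used as deposited by the authors, who summarised them by RMA (per the submitters' processing notes; version and parameters not given in the sources used here). Of 45101 probe sets, 64 were controls, 34945 had 1 gene symbol in the platform annotation, 932 had several and 9160 were not listed, and 34741 of the named probe sets matched a RefSeq gene. Each of 18193 genes was measured by the probe set whose average over the 12 arrays was highest. A limma model (version 3.58.1, R 4.3.3) with the 4 groups as terms was fitted to all 12 arrays, which share 1 estimate of spread, with 8 residual degrees of freedom before moderation. Contrasts were the sort difference in mutants, the same in wild types, and their difference (the interaction). P-values were adjusted over all genes by Benjamini-Hochberg, with a threshold of 0.05. The script was tested on simulated data. The number of arrays limits the precision.

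Members and gene lists were chosen with earlier results of these data known. Named genes were 14 key genes, the 12 largest rises and 12 largest falls with arrays that do not overlap, the 6 largest interactions each way, and up to 4 genes per list with the smallest p. The labels do not state that replicate numbers mark pairs, and the main fit, its SEs and its intervals treat the arrays as unpaired. Within a genotype, departures of same-numbered positive and negative arrays from their group means correlated over genes. The values were 0.554, 0.403 and 0.413 in mutants and 0.190, 0.102 and 0.202 in wild types. The fit with the pairs as a block is therefore given where it ends or adds a named call or moves a count by over 1.5 times. Alternatives were the collapse of probe sets, the mutant arrays alone, the block, a filter on dim genes, a new quantile normalization, median centring, a trended robust prior and leaving out arrays. Leaving out both mutant arrays numbered 1 was added after seeing the data, as were the list counts without single arrays. EYFP was not analysed here. Probe set positions were not used here.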

Additional observations from a re-analysis of the deposited data

Results flagged for a closer look

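The named genes below stand out because the sort difference differed between mutants and wild types by limma's interaction term (adjusted p under 0.05 over all genes). Each value is the mutant minus the wild-type sort difference on the log2 scale, with n = 3 arrays in each of the 4 groups. Interactions were called in 2.58% of all genes.

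Among blood and endothelial genes the interactions were negative. They were -6.11 for Ctla2b and -5.60 for Ctla2a, neighbouring relatives that probe sets may not fully separate, -5.74 for Hemgn, -5.35 for Klhl4, -5.34 for Cdh5 and -5.25 for the embryonic globin Hba-x. Ctla2b differed by 0.48 in mutants and 6.59 in wild types. Further values were -4.50 for Tal1, -3.65 for Cd34, -3.60 for Klf1, -3.36 for Etv2, -3.16 for Plvap, -2.42 for Tek and -1.09 for the erythroid membrane protein Ank1. The Ank1 call was lost with the mean of its probe sets (-0.39, adjusted p = 0.174) and without the collapse to genes (-0.23, adjusted p = 0.832).

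Heart and muscle genes had positive interactions: Tbx2 2.91, Myl7 2.69, Tnni1 2.59, Hand2 1.85, Tbx20 1.82, Gata6 1.72, Gata4 1.70, Mybpc3 1.23 and Des 0.78. Without the collapse to genes the calls of Hand2, Gata6, Gata4 and Des were lost (median adjusted p = 0.616, 0.175, 0.499 and 0.436). Leaving out both mutant arrays numbered 1 ended those of Myl7 (adjusted p = 0.0601), Gata4 and Des. The Des call was lost without positive array 1, negative array 2 or negative array 3 of the mutants (up to 0.0702) and with the mean of its probe sets (0.32, adjusted p = 0.246), and that of Tbx20 in 4 of 6 single-array omissions (up to 0.0695).

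Mesodermal, adhesion and signalling genes also had positive interactions. They were 2.79 for Vcam1, 2.71 for Tcf21, 2.43 for Tgfbi, 2.17 for Wnt2, 1.93 for Pdgfra, 1.52 for Pgf and 1.26 for Foxf1. Of these, Vcam1, Tcf21 and Foxf1 lost the call without the collapse to genes (median adjusted p = 0.187, 0.261 and 0.346). Foxf1 also lost it without both mutant arrays numbered 1. The values 2.45 for Rgs5, 1.49 for Pitx1, 1.41 for Bmp4, 1.22 for Col1a2, 1.03 for the retinol dehydrogenase Rdh10 and 2.82 for Zic1 each lost the call on leaving out some single mutant array. Their highest adjusted p was 0.0992 (Rgs5), 0.0655 (Pitx1), 0.0654 (Bmp4), 0.107 (Col1a2), 0.0896 (Rdh10) and 0.0630 (Zic1). Rgs5 kept its call only without positive array 1 or 3, Col1a2 only without positive array 1, Rdh10 only without negative array 2 and Zic1 only without positive array 3. Col1a2 also lost it with the mean of its probe sets (1.02, adjusted p = 0.102), and Rdh10 with the replicate block (0.0535). Pitx1 lost it without negative array 2 or 3, and Bmp4 without positive array 2 or negative array 1 or 3. Lpar3, a receptor for lysophosphatidic acid, had the highest interaction, 2.99, with differences of 1.80 in mutants and -1.19 in wild types. Its mutant rise (limma, adjusted p = 0.0186) was lost in 4 of 6 single-array omissions (up to 0.0763) and without both mutant arrays numbered 1.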

How the results depend on the processing

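The counts of 558 rises, 417 falls and 469 interactions stayed within 1.5 times under the collapse of probe sets, the dim-gene filter, quantile normalization, median centring, the trended robust prior, the mutant arrays alone (not for the interaction) and leaving out both wild-type arrays numbered 1. With the replicate block they were 872, 614 and 797. Without single mutant arrays the rises ranged from 368 to 484, the falls from 257 to 413 and the interactions from 344 to 452, and without both mutant arrays numbered 1 they were 350, 285 and 292. The part of the smaller fits in these counts was not tested. Named differences that changed sign had not passed the threshold. Flt4 was -0.043 both with the mean of its probe sets and without the collapse to genes, and Smo was 0.041 and 0.16. Rps3 was -0.27 and -0.29 there. Over the omissions of single mutant arrays Rps3 ranged from -0.010 to 0.15, Rps6 from -0.66 to 0.084, Hba-x from -0.33 to 0.078 and Hbb-y from -3.26 to 0.16, with the sign turned without negative array 2 (positive array 3 for Rps6). The block changed the calls of Tal1, Flt1, Cbfa2t3, Hoxa10 and Pmaip1 and the Rdh10 interaction, and no other sort difference named in the text. With the mutant arrays alone the calls of Bmp2 (adjusted p = 0.0682), Cd44 (0.0523) and Klf6 (0.0528) were lost, as were calls that leaving out single arrays also ended, among them Cd34, Pdgfra, Nkx2-5 and Vegfd. Without the collapse to genes, the median over a gene's probe sets stands for it. Calls lost there included Vegfa (0.55), Ahnak (0.31), Foxf1 (0.94), Hand2 (0.29), Gata4 (0.82), Pax6 (-0.21) and Sox1 (-2.19). Shh (-1.30), Rfx4 (-1.96), Cldn9 (-1.73), Erbb3 (-0.89) and Tgfbr3 (0.63) were lost as well. Interactions lost there included those of Cdh5 (-2.84), Foxf1, Tcf21, Vcam1, Hand2, Gata4 and Gata6. Dim probe sets bound what the lower values can show, and genes with several probe sets often had smaller differences in the dimmer ones.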

Other observations

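The 12 largest falls held Eras and Mir124-2hg, which belong to none of the lists. Eras, a Ras-family gene of pluripotent cells, read 7.35, 5.17 and 5.52 on the mutant positive and 9.40, 9.46 and 9.72 on the mutant negative arrays, a difference of -3.51 ± 0.62 (limma, adjusted p = 0.00630). All 3 positive arrays lay below the negative ones, with array 1 the highest. Mir124-2hg, a host transcript of the neuronal microRNA miR-124, read 5.36, 4.57 and 4.40 against 7.83, 8.25 and 7.95, a difference of -3.24 ± 0.29 (adjusted p = 0.000126) near the -2.96 of wild types. Within the Wnt list, the receptor Fzd5 read 7.36, 6.76 and 6.08 against 9.19, 9.39 and 9.02 and differed by -2.47 ± 0.43 (adjusted p = 0.00568), where wild types had -0.37, and the interaction did not pass (adjusted p = 0.117).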
